A study of Mus musculus with 18 samples.

Results

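The oxidative phosphorylation genes were taken from the gene count table of an RNA-seq experiment as the protein-coding genes whose symbols begin with Nduf (subunit letters a, b, c, s or v), Cox4 to Cox8, Uqcr, Atp5 or mt-, together with Sdha, Sdhb, Sdhc and Sdhd. The pattern found 98 of 54532 genes. Of these, 85 are nuclear and 13 lie on the mitochondrial chromosome. By respiratory complex there are 42 members in complex I, 4 in complex II, 9 in complex III, 23 in complex IV and 20 in complex V. The choice used symbols and annotation, not measured values.

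The cells were C3H10T1/2, as the series' design text spells it (CH310T1/2 in the sample labels, which call them mesenchymal stem cells), a mouse embryonic fibroblast line that can be turned into adipocytes in culture. Wild-type (WT) cells and 2 FOXS1 knockout clones (FOXS1 KO clone 1 and FOXS1 KO clone 2, each a single CRISPR-edited line) were compared. FOXS1 is a forkhead transcription factor. Each line was left uninduced or was stimulated with TGF-β1 at 1 nM for 12 h and then with an adipogenic mixture (DMII: dexamethasone, IBMX, insulin and indomethacin) for 48 h. There were 6 groups of 3 libraries. A single clone cannot tell the edit from what else distinguishes that clone, and both clones were set against the same WT libraries, so the pairs of clone comparisons below are not independent. TGF-β1 and DMII were given together in every stimulated group, so their parts cannot be told apart. The sources did not say that replicates were separate cultures, so p-values measure the spread between these samples, which may be technical.

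The respiratory chain passes electrons from NADH (complex I) and succinate (complex II) through complex III and cytochrome c to oxygen at complex IV, and ATP synthase (complex V) uses the proton gradient that results. Complex II is made wholly from nuclear genes. The other complexes each combine nuclear subunits with subunits read from mitochondrial DNA, so their making needs 2 genomes. In fibroblasts that become adipocytes, this machinery is known to grow with lipid storage and, in thermogenic fat, with heat production.

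Sequence bears on how the mitochondrial members can be read, because mouse nuclear chromosomes carry copies of mitochondrial DNA. A pair that a read can separate and a pair that it cannot are shown. The first is mt-Co1 and Gm13340, positions 460 to 519 counted from the first base of mt-Co1, with capitals at the bases that differ.
mt-Co1: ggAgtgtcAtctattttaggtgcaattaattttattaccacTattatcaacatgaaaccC
Gm13340: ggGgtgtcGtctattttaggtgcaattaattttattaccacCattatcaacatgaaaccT
The second is mt-Co2 and Gm28661, the first 60 bases, which hold no difference.
mt-Co2: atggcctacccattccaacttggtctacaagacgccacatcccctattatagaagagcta
Gm28661: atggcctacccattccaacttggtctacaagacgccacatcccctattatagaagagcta
Over their whole aligned lengths mt-Co1 and Gm13340 differed at 37 of 1545 bases, whereas mt-Co2 and Gm28661 differed at 0 of 681.

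Identical copies were also found for mt-Co3 (Gm28437, 783 aligned bases), mt-Atp6 (Gm10925, 678 bases), mt-Nd4l (Gm10222, 294 bases) and 876 bases of mt-Nd4 (Gm28439). The copy of mt-Nd3 (Gm28438) differed at 1 of 345 bases. The median count of mt-Co1 over the 18 libraries was 100091 and that of Gm13340 was 35.5. For most of the identical pairs the counts were alike in size. mt-Co2 had a median of 458.5 counts beside 322.5 for Gm28661, mt-Co3 had 460.5 beside 577.5 for Gm28437, and mt-Atp6 had 500 beside 539.5 for Gm10925. Both genes of the mt-Nd4l pair had few counts. mt-Nd4l had 491 over all 18 libraries together, and Gm10222 had 14 to 70 in a library (median 21.5). In mt-Nd4 the 18 libraries held 10503 to 40597 counts beside 46 to 235 for Gm28439, so that pair was not alike. Values of members with an identical copy are uncertain, since counting could split reads between the copies or leave out reads that match both places. The sources did not say how such reads were handled.

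Levels per kilobase of gene fell into separate ranges. Read counts scaled to library size by the trimmed-mean method (TMM) and given as CPM, a library's counts brought to a common total, were divided by gene length in kilobases. The 7 most abundant mitochondrial members had group means of 469 to 4059 CPM per kb, namely mt-Co1 and mt-Cytb (the catalytic core of complexes IV and III) and mt-Nd1, mt-Nd2, mt-Nd4, mt-Nd5 and mt-Nd6 (membrane subunits of complex I). The remaining 6 (mt-Co2, mt-Co3, mt-Atp6, mt-Atp8, mt-Nd3 and mt-Nd4l) had 1.16 to 70.7 CPM per kb. In uninduced WT cells mt-Co1 (mitochondrial chromosome, 5328 to 6872, GRCm38) stood at 3114 CPM per kb and mt-Cytb at 1893. mt-Co2 stood at 29.8 and mt-Co3 at 28.2 CPM per kb, and both encode partners of mt-Co1 in the same enzyme. Both have an identical nuclear copy, so these levels cannot be read as a difference in RNA from mt-Co1. Of the remaining 6, all but mt-Atp8 have a copy that is identical or differs at 1 base. mt-Nd6 (13552 to 14070) is the only member on the opposite strand of the mitochondrial chromosome, and without a stated strand setting its reads and antisense reads cannot be told apart.

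**Figure D1:**
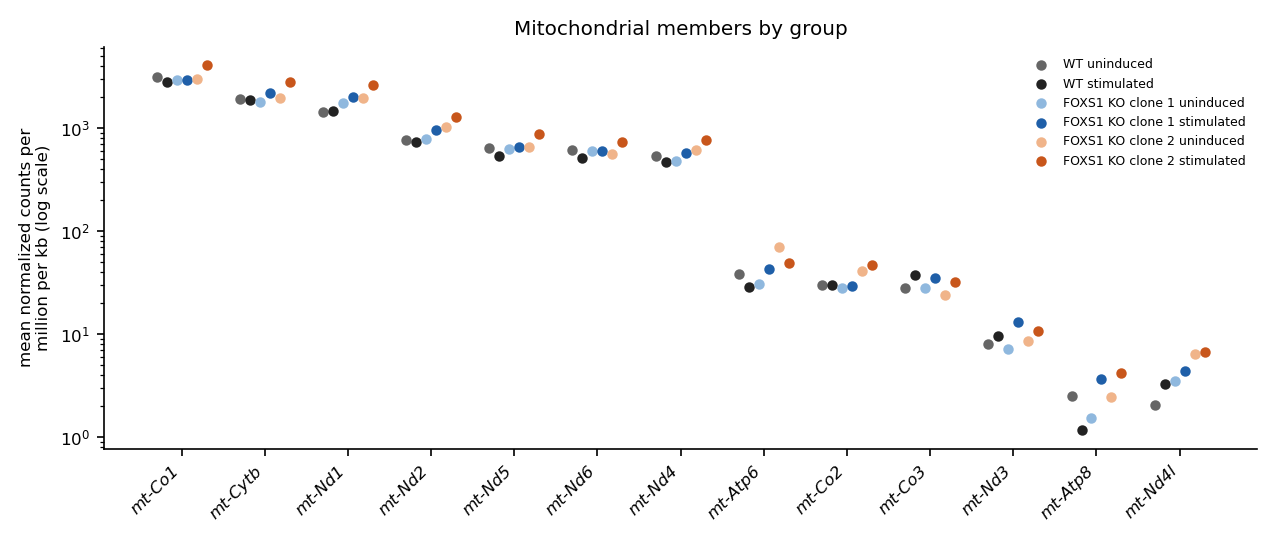
Mean CPM per kilobase of the 13 mitochondrial members in the 6 groups, on a log axis. The 7 abundant members lie at 469 or above in every group and the other 6 at 70.7 or below.

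Nuclear members that passed the count filter reached 439 CPM per kb. In uninduced WT cells the highest were Cox6a1 (344 CPM per kb), Atp5b, the catalytic β subunit of ATP synthase (308), Cox8a (294), Atp5a1 (268) and Cox4i1 (249). Of the 98 members, 92 passed the filter and were tested, 79 of them nuclear and 13 mitochondrial. The 6 others were Cox6b2, Cox7a1, Cox7b2, Cox8b, Cox8c and a second Atp5o record, and 2 of these had no count in any library.

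Library totals ranged from 15576685 to 42005596 counts. Summed over 7 fibroblast markers, every library held 33898 CPM or more, while no list of macrophage, epithelial, endothelial or skeletal muscle markers exceeded 3.52 CPM in a library. Ptprc had 0 counts throughout. The 4 mature adipocyte markers (Fabp4, Plin1, Cidec, Adipoq) summed to 30.5 to 43.0 CPM in stimulated clone 1, to 2.71 to 4.64 in stimulated clone 2 and to 0.293 to 1.22 in stimulated WT cells, and their part in the results below was not tested. Thy1, a fibroblast surface marker, was at group means of 0.342 and 0.616 CPM in clone 2. Foxs1 itself had median levels of 1.81 and 2.55 CPM in uninduced and stimulated WT cells, 26.7 and 53.6 in clone 1, and 22.9 and 38.8 in clone 2. A whole-gene total does not show a small edit, so it is no check of the knockout, and the level was higher in the libraries labelled FOXS1 KO.

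The first question was how WT cells changed these genes on stimulation. At an adjusted p below 0.05 (edgeR's quasi-likelihood test, Benjamini-Hochberg), 34 members were higher and 8 lower in stimulated WT cells, all of them nuclear. Over all 14317 genes tested 60.7% were called in either direction, 28.8% higher and 31.9% lower. The median log2 fold change was 0.12 over the 79 nuclear members and -0.04 over all genes. Both counts depended on single libraries. Dropping WT uninduced replicate 1 left 24 members higher and 13 lower. Dropping WT uninduced replicate 3 gave 40 higher and 6 lower, and dropping WT stimulated replicate 2 gave 32 and 4. The higher count was lowest, at 24, without WT uninduced replicate 1. Only 3 members also passed a 2-fold threshold and are called differentially expressed genes (DEGs) here, against 19.9% of all genes. They were Cox5a and Ndufa4l2, higher (6.25% of all genes), and Cox6a2, lower (13.6%). Ndufa4l2 and Cox6a2 had few counts in WT libraries, given below, and most of those of Cox6a2 in uninduced WT cells lay in a single library. A test against the 2-fold threshold itself (glmTreat) left 1 DEG.

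Cox5a, a nuclear subunit next to the catalytic core of complex IV, lies on chromosome 9 (57521274 to 57532426, GRCm38, plus strand). It stood at 34.0, 38.6 and 38.8 CPM in the uninduced WT libraries and at 78.6, 76.3 and 71.2 CPM in the stimulated ones. All stimulated libraries lay well above the uninduced ones. The log2 fold change was 1.02 ± 0.07 (SE), with an adjusted p of 3.51e-14 by edgeR's quasi-likelihood test. Gm26631 overlaps 12.8% of its exonic bases.

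Other rises were smaller and spread over the complexes. Uqcrq, a small subunit of complex III, rose from 66.9, 87.7 and 93.0 CPM to 157, 138 and 146 (log2 fold change 0.83 ± 0.09, edgeR adjusted p = 1.93e-07). Atp5g1 encodes the same mature c-ring subunit of ATP synthase as Atp5g2 and Atp5g3, and it rose from 60.3, 71.0 and 68.7 CPM to 106, 102 and 96.1 (0.60 ± 0.07, edgeR adjusted p = 9.34e-09). Ndufs5, an accessory subunit of complex I, rose from 53.5, 53.3 and 59.3 CPM to 77.8, 73.3 and 76.5 (0.45 ± 0.06, edgeR adjusted p = 2.31e-07). In each of these genes all stimulated libraries lay above the uninduced ones, which held for 29.9% of all genes. Uqcrh, the hinge subunit of complex III, rose by 0.41 on the log2 scale.

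By complex, 15 nuclear members of complex I were higher and 2 lower of 35, 3 were higher and 1 lower of 8 in complex III, 8 and 1 of 15 in complex IV, and 8 and 3 of 17 in complex V. In complex II, Sdhc, a membrane anchor, fell from 141 to 144 CPM in uninduced WT libraries to 112 to 120 CPM in stimulated ones (log2 fold change -0.29, edgeR adjusted p = 0.000118). The catalytic subunits Sdha and Sdhb differed by 0.03 and 0.05 and did not pass. The c-ring genes moved unequally, since Atp5g3 rose (0.25) and Atp5g2 fell (-0.18) beside the rise of Atp5g1. Atp5s, a distant homologue of the coupling factors, fell (-0.77), as did Ndufb2 (-0.60), which is named after its values were seen. Among the 13 mitochondrial members 0 passed in WT cells by edgeR's quasi-likelihood test, 0 had an unadjusted p below 0.05, and DESeq2 called 0.

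**Figure D2:**
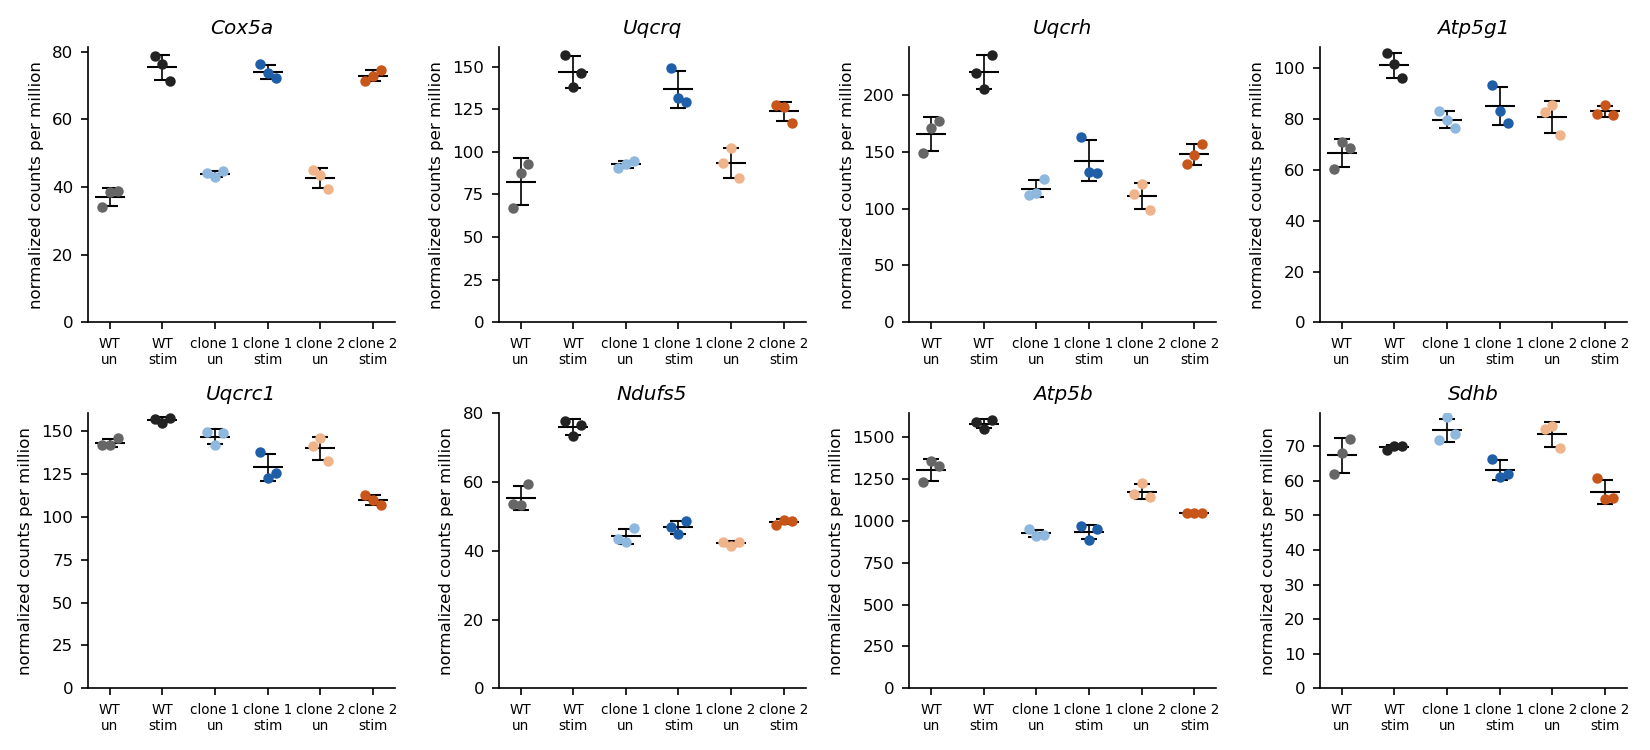
Normalized counts (CPM) of 8 nuclear members in each of the 18 libraries, by group. Cox5a rises in all 3 lines, Atp5g1 rises in WT cells from 60.3 to 71.0 up to 96.1 to 106 CPM, and the levels of Ndufs5 and Atp5b in both clones stay below those of stimulated WT cells.

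In the clones the same stimulus gave 18 members higher and 14 lower in clone 1, where 54.5% of all genes were called (25.9% higher, 28.6% lower), and 18 higher and 22 lower in clone 2, where 55.8% were (26.7% and 29.1%). Cox5a rose from 44.3, 42.9 and 44.6 to 76.3, 73.7 and 72.3 CPM in clone 1. It rose from 45.1, 43.5 and 39.5 to 71.3, 72.9 and 74.5 CPM in clone 2. The stimulated levels overlapped those of WT cells, and the uninduced levels were above the WT ones. The difference in response, the log2 fold change in a clone minus that in WT, was -0.27 ± 0.09 in clone 1 and -0.25 ± 0.09 in clone 2 (edgeR adjusted p of 0.0268 and 0.0359).

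Atp5g1 did not pass for a rise in either clone. It stood at 83.4, 79.8 and 76.4 CPM uninduced and 93.4, 83.3 and 78.7 stimulated in clone 1. In clone 2 the levels were 82.9, 85.6 and 73.7 CPM uninduced and 82.0, 85.7 and 81.8 stimulated. Within each clone the 2 treatments overlapped, and the log2 fold changes were 0.09 ± 0.07 and 0.04 ± 0.07. Uninduced levels in the clones were above WT (0.26 and 0.28) and stimulated levels below WT (-0.25 and -0.28). The differences in response were -0.51 ± 0.10 and -0.56 ± 0.10 (edgeR adjusted p of 0.000118 and 3.36e-05).

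Over the members, the test of the difference in response called 1 higher and 12 lower in clone 1 and 3 higher and 19 lower in clone 2, out of 92. Of all genes, 31.6% were called in the clone 1 test (15.9% higher, 15.7% lower) and 31.2% in the clone 2 test (15.9% and 15.3%). Called in either direction, members thus fell below the share of all genes in both tests. The lower count in clone 1 was near the share of all genes. The count of 12 was 7 without WT stimulated replicate 1 and also 7 without FOXS1 KO clone 1 stimulated replicate 3. The count of 19 was 12 without WT stimulated replicate 1 or FOXS1 KO clone 2 uninduced replicate 2. It was 29 without WT uninduced replicate 3 or FOXS1 KO clone 2 uninduced replicate 3. By edgeR's quasi-likelihood test 0 members were DEGs in either test, beside 8.81% and 7.85% of all genes, with 1 in each at an unadjusted p below 0.05 and a 2-fold change. DESeq2 called 1 in clone 1 and 0 in clone 2. Leaving out a library gave 1 or 2 such members for clone 1 (2 without WT uninduced replicate 2, and 1 without WT uninduced replicate 1, WT stimulated replicate 2 or FOXS1 KO clone 1 stimulated replicate 1). For clone 2 it gave 1 without WT uninduced replicate 2 or 3, WT stimulated replicate 2 or 3, or FOXS1 KO clone 2 uninduced replicate 1.

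Uqcrc1, a core subunit of complex III, passed as lower in both tests without a large rise in WT cells. WT levels were 142, 142 and 146 CPM uninduced and 157, 155 and 158 stimulated. Clone 1 had 149, 142 and 149 CPM uninduced and 138, 123 and 126 stimulated. Clone 2 had 141, 146 and 133 CPM uninduced and 113, 110 and 107 stimulated. Uninduced, the 3 lines overlapped, whereas stimulated libraries of each line stood apart. The responses were 0.13 in WT, -0.19 in clone 1 and -0.35 in clone 2, and the differences from WT were -0.32 ± 0.07 and -0.48 ± 0.07 (edgeR adjusted p of 0.000705 and 2.86e-06).

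Sdhb, the iron-sulfur subunit of complex II, stood at 69.0, 70.1 and 70.1 CPM in stimulated WT libraries, at 66.2, 61.0 and 61.9 in clone 1 and at 60.7, 54.6 and 54.9 in clone 2. Its difference in response was -0.29 ± 0.09 in clone 1 and -0.42 ± 0.09 in clone 2. Ndufs5 gave -0.37 ± 0.09 and -0.26 ± 0.09, Atp5g3 -0.25 ± 0.08 and -0.34 ± 0.08, and Atp5d, the δ subunit of ATP synthase, -0.21 ± 0.07 and -0.20 ± 0.07. Each of these passed in both tests. Atp5b and Ndufs1, the largest core subunit of complex I, are named after their values were seen. Atp5b stood at 1232 to 1358 CPM in uninduced and 1551 to 1604 CPM in stimulated WT libraries, and its differences in response were -0.26 and -0.44. Ndufs1 gave -0.35 and -0.45. The positive differences that passed were Ndufb3 in clone 1, and Atp5s, mt-Nd5 and mt-Nd6 in clone 2. Atp5s gave 0.96 ± 0.25 (edgeR adjusted p = 0.00335). Ndufb3, an accessory subunit of complex I named after its values were seen, gave 0.57 ± 0.12 (edgeR adjusted p = 0.000249).

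The promoters of 3 of these genes are shown because their responses differed in kind: Cox5a rose in every line, Ndufs5 rose in WT (0.45) and clone 2 (0.20) but gave 0.08 in clone 1, which did not pass, and Uqcrc1 rose in WT and fell in both clones. Each is 250 bases before and 50 after the RefSeq gene start (GRCm38.p6), read 5′ to 3′ on the gene's strand, with capitals for a motif.
Cox5a (chr9:57520982-57521281, plus strand): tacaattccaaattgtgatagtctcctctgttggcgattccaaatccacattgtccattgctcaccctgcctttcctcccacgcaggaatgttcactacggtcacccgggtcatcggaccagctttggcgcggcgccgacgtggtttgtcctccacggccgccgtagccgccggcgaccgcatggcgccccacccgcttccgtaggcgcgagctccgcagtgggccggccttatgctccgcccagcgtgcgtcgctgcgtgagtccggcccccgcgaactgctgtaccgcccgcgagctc
Ndufs5 (chr4:123718137-123718436, minus strand): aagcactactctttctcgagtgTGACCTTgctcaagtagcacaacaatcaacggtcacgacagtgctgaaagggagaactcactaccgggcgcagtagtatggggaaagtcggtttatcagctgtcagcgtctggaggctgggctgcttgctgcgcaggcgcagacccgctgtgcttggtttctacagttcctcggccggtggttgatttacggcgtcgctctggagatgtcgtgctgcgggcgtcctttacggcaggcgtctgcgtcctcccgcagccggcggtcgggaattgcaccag
Uqcrc1 (chr9:108936398-108936697, plus strand): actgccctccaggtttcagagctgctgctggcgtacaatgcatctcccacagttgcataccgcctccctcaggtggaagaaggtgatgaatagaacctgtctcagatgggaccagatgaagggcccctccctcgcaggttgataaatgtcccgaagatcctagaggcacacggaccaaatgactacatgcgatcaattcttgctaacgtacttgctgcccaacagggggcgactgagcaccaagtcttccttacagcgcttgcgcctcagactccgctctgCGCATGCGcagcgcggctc

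Both strands were searched for 5 motifs. Capitals in Ndufs5 mark the letters of estrogen-related receptors (AAGGTCA, here on the other strand), and those in Uqcrc1 mark the core of the NRF1 motif (GCATGCG), which overlaps its own reverse complement there. None of the 5 was found in the Cox5a window. RefSeq gave promoters for 68 of 84 nuclear member symbols. The NRF1 core stood in 10 of these (14.7%, beside 3.64% of 27025 promoters). The ETS motif CCGGAAG stood in 15 (22.1% beside 9.12%), the estrogen-related receptor motif in 8 (11.8% beside 4.66%) and the YY1 motif AAGATGG in 10 (14.7% beside 6.48%). The forkhead motif GTAAACA stood in 1, Cox7a2 (1.47% beside 3.55%). The motifs were chosen after the expression values were seen, and the NRF1 core replaced a longer form of that motif whose matches, which were fewer, had already been counted. A match is a description of letters and not a measured site.

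The next comparison set each clone against WT after stimulation. In clone 2, 19 members were higher and 43 lower than in WT at an adjusted p below 0.05 (edgeR's quasi-likelihood test), and 56.0% of all genes were called (27.7% higher, 28.3% lower). The split ran along the genomes. Of 79 nuclear members 43 were lower and 10 higher, with a median log2 fold change of -0.22. Of 13 mitochondrial members 9 were higher and 0 lower, with a median of 0.72. The median over all genes was -0.01. In bulk RNA, fewer cells of a type and less RNA per cell cannot be told apart.

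Complex by complex, the nuclear core of complex I (the subunits that carry its electron path) was lower in clone 2 for 7 of 7 genes, with a median of -0.35. The accessory subunits gave 14 lower and 3 higher of 28. In complex III 6 of 8 nuclear members were lower and none higher, with a median of -0.40. In complex V the F1 head, which holds the catalytic sites, was lower for 5 of 5 genes (median -0.38), while its peripheral stalk gave 2 higher and 0 lower of 4. Complex IV gave 4 lower and 3 higher of 15. In complex II, Sdha, Sdhb and Sdhd were lower and Sdhc did not pass. Sdha, the flavoprotein subunit, stood at 187, 179 and 180 CPM in clone 2 and 262, 269 and 270 in WT (-0.55 ± 0.05, edgeR adjusted p = 2.02e-11).

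Ndufa9, an accessory subunit of complex I, had the lowest value among complex I members that passed in clone 2 (-0.80 ± 0.08, edgeR adjusted p = 1.54e-10). Uqcrh gave the lowest value in complex III. It stood at 219, 205 and 235 CPM in stimulated WT libraries, at 163, 132 and 131 in clone 1 and at 139, 147 and 157 in clone 2. No library of a clone reached the WT range, and the log2 fold changes were -0.63 ± 0.09 and -0.58 ± 0.09. Ndufs5 stood at 77.8, 73.3 and 76.5 CPM in WT, at 47.0, 44.8 and 48.7 in clone 1 and at 47.5, 48.9 and 48.6 in clone 2 (-0.70 and -0.65). Atp5b, the most abundant of the nuclear members in CPM, gave -0.76 ± 0.04 and -0.59 ± 0.04.

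Clone 1 after stimulation had 15 members higher and 26 lower than WT (58.9% of all genes called, 28.4% higher and 30.5% lower). All 26 were nuclear, and the nuclear median was -0.05. The complex I core gave 5 lower and 0 higher of 7, complex III 4 lower and 0 higher of 8, and the F1 head 3 lower of 5. Among members that passed, Atp5d had the lowest value (-0.84 ± 0.05, edgeR adjusted p = 1.72e-14). Cox4i1, the common form of a regulatory subunit of complex IV, was higher than WT in clone 1 (0.28) and gave 0.11 in clone 2, which did not pass. Ndufs4, an accessory subunit of complex I named after its values were seen, was higher than WT in clone 1 (0.31) and lower in clone 2 (-0.56). The direct comparison of the clones, stimulated, called 32 members higher in clone 1 and 13 lower (45.4% of all genes, 22.2% higher and 23.2% lower), and Ndufs4 differed by 0.88 ± 0.08.

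**Figure D3:**
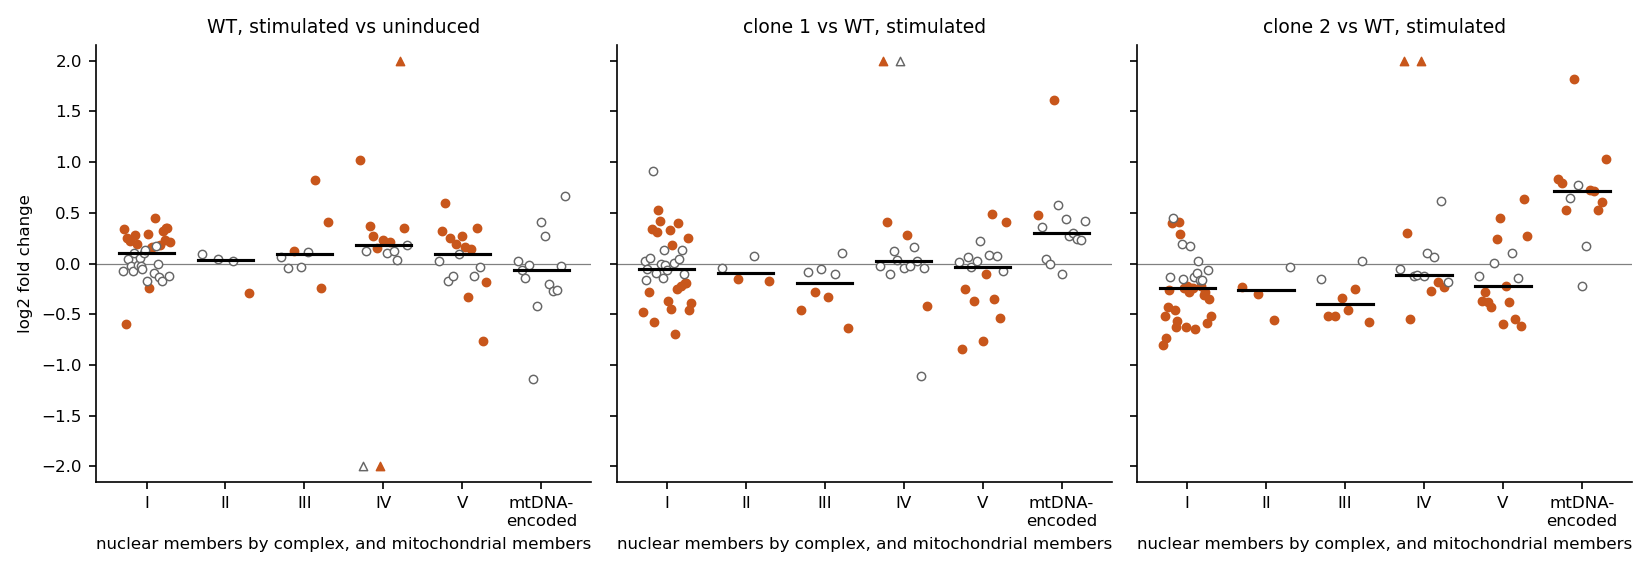
Log2 fold changes of the tested members by complex and genome, for stimulated against uninduced WT cells and for each stimulated clone against stimulated WT cells. Filled points passed an adjusted p of 0.05, triangles lie beyond the axis and bars are medians. In the clone 2 panel the nuclear median is -0.22 and the mitochondrial median 0.72.

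Before stimulation 17 members stood above WT and 21 below it in clone 1, where 53.5% of all genes were called (26.3% above, 27.2% below). In clone 2 the numbers were 21 and 23, where 53.2% of all genes were called (26.3% and 26.9%). No member was a DEG in clone 1 by edgeR's quasi-likelihood test, where 15.1% of all genes were, and 1 had an unadjusted p below 0.05 with a 2-fold change. DESeq2 called 0, and edgeR called 1 without WT uninduced replicate 2 or 3. In clone 2, 4 members were DEGs all higher (15.1% of all genes were DEGs, 5.54% higher), namely Cox4i2, Cox6a2, Ndufa4l2 and mt-Nd4l. The nuclear medians were 0.03 and -0.05. Uninduced, the clones differed from each other in 37 members (42.2% of all genes). Uqcrh (-0.50 and -0.57) and Ndufs5 (-0.33 and -0.39) were already lower than WT in uninduced clones 1 and 2.

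Among the mitochondrial members, mt-Nd1 gave the largest of the well-counted differences in clone 2 against stimulated WT. It stood at 1383, 1319 and 1467 CPM in WT, at 1581, 2015 and 2198 in clone 1 and at 2203, 2712 and 2529 in clone 2. Every clone 2 library lay above every other stimulated library. Against WT the log2 difference came to 0.84 ± 0.16 for clone 2 and 0.48 ± 0.16 for clone 1 (edgeR adjusted p of 0.000472 and 0.0185). Uninduced libraries held 1135 to 1559 CPM in WT, 1481 to 2068 in clone 1 and 1758 to 1962 in clone 2. Those of clone 1 overlapped both other lines, whereas clone 2 already lay above WT (0.45 ± 0.16, edgeR adjusted p = 0.0272). The difference in response of clone 2 was 0.39 ± 0.22 for mt-Nd1 and did not pass (edgeR adjusted p = 0.221).

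The other 6 abundant mitochondrial members were higher in stimulated clone 2 too. The log2 fold changes were 0.79 for mt-Nd2, 0.72 for mt-Nd4 and mt-Nd5, 0.60 for mt-Cytb, 0.53 for mt-Nd6 and 0.53 for mt-Co1, with edgeR adjusted p from 0.000499 to 0.0209. mt-Co1 stood at 4333, 4108 and 4609 CPM in WT and 5489, 7060 and 6265 in clone 2. In clone 1 these 6 gave 0.05 to 0.36 and none passed. mt-Nd2, like mt-Nd1, was already higher than WT in uninduced clone 2 (0.41 ± 0.15, edgeR adjusted p = 0.0328), and the remaining 5 of the 7 did not pass there. Leaving out 1 library at a time kept 6 or 7 of the 7 in the clone 2 test. The genes are read from shared transcripts of 1 small chromosome, so they are not independent of each other. mt-Nd5 and mt-Nd6 passed the test of the difference in response of clone 2 (0.69 ± 0.25 and 0.66 ± 0.22, edgeR adjusted p of 0.0495 and 0.036). The other 5 abundant members did not, with edgeR adjusted p from 0.0896 for mt-Co1 to 0.221 for mt-Nd1.

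The sums of both genomes gave the same picture on a single scale. Nuclear members summed to 9822, 10036 and 10180 CPM in stimulated WT libraries and 8331, 8430 and 8442 in stimulated clone 2, with no overlap. Stimulated clone 1 had 8762, 8832 and 9750 CPM, which did not overlap WT either. The ratio of mitochondrial to nuclear sums was 1.02, 1.03 and 1.12 in stimulated WT, 1.03, 1.45 and 1.59 in stimulated clone 1 and 1.74, 1.95 and 2.18 in stimulated clone 2. Clone 2 libraries stood apart from both others, and those of clone 1 reached down to the WT range. The ratio was 1.85-fold higher in clone 2 than in WT (1.96 ± 0.22 and 1.06 ± 0.05, SD, n = 3; exact two-sided permutation p = 0.1, the smallest that 3 against 3 allows). Uninduced, the means were 1.27 ± 0.14 in WT, 1.30 ± 0.27 in clone 1 and 1.43 ± 0.18 in clone 2, with overlapping libraries.

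**Figure D4:**
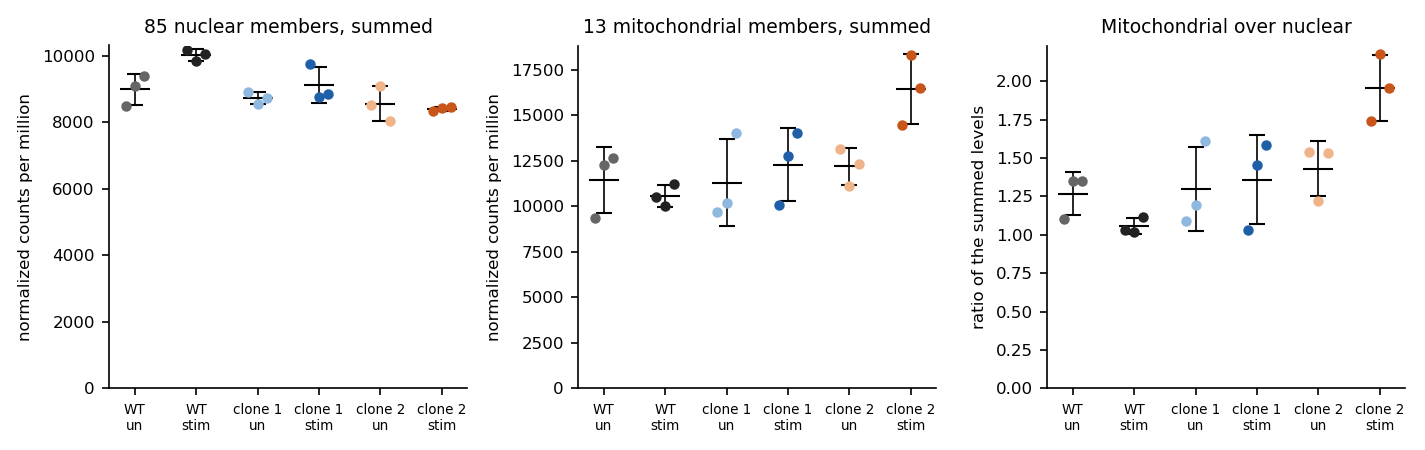
Summed normalized counts (CPM) of the nuclear and the mitochondrial members and their ratio, by library and group. The ratio lies between 1.74 and 2.18 in stimulated clone 2 and between 1.02 and 1.12 in stimulated WT cells.

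As a share of all counts the 13 mitochondrial members took 1.00% ± 0.06 in stimulated WT and 1.44% ± 0.15 in stimulated clone 2 (SD, n = 3; exact permutation p = 0.1, groups not overlapping). Nearly all of these counts, and of the mitochondrial sums above, lay on the 7 abundant members. In WT the share was 1.26% ± 0.20 uninduced, and the uninduced and stimulated libraries overlapped. These shares use raw library totals, whereas the CPM above use TMM sizes. On raw totals the nuclear members took 0.99% in uninduced and 0.95% in stimulated WT libraries. Their TMM-scaled sums had means of 8981 and 10013 CPM, so the rise of the nuclear sum in WT depends on the scale.

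Tissue-restricted forms of complex IV subunits were near the detection floor. Cox4i2, the form known from lung and hypoxic cells, had 0, 0 and 0 counts in stimulated WT libraries, 1, 17 and 9 in clone 1 and 7, 9 and 3 in clone 2. Against a floor of 3 counts over the WT group this is at least 8.72-fold higher in clone 1 and at least 8.37-fold higher in clone 2. It was a DEG in both comparisons (edgeR adjusted p of 0.00108 and 0.00141). Cox6a2, the heart and muscle form, had 107, 67 and 61 counts in uninduced clone 2, where WT libraries had 0, 13 and 1. After stimulation it had 10, 5 and 15 counts in clone 2 and 0, 0 and 1 in WT. Even the highest of these levels was 3.54 CPM, whereas Cox6a1, the common form, had 217 CPM or more in every library.

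Ndufa4l2, known as a hypoxia-induced relative of Ndufa4, had 0, 3 and 0 counts in uninduced WT libraries and 6, 15 and 9 in stimulated ones. In uninduced clone 2 it had 25, 11 and 8 counts. Ndufa4 itself, a subunit of complex IV despite its name, stood at 116 to 157 CPM throughout. Cox8b, a form of muscle and brown fat, had 21, 10 and 4 counts in uninduced clone 2 and at most 4 in any other library, and it was not tested. Of the 4 DEGs in stimulated clone 2, Cox4i2 and Cox6a2 are such forms and the other 2, mt-Nd4l and mt-Atp8, are mitochondrial members of few counts. The value of mt-Nd4l is also uncertain because of its identical copy Gm10222. mt-Atp8 had 3, 11 and 2 counts in stimulated WT and 12, 11 and 20 in stimulated clone 2, and it was also, with Cox4i2, a DEG of stimulated clone 1. Of all genes, 9.42% were DEGs above WT in that comparison and 7.95% in clone 2. The count of 4 was 2 without WT stimulated replicate 1 or 3 or FOXS1 KO clone 2 stimulated replicate 3. The count of 2 in clone 1 was 1 without any of 11 libraries: WT stimulated replicates 1 and 3, FOXS1 KO clone 1 uninduced replicates 1 and 2, clone 1 stimulated replicates 2 and 3, clone 2 uninduced replicates 1 and 2, and clone 2 stimulated replicates 1, 2 and 3.

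The fold changes of nuclear members between lines moved with the chromosome on which they lie. For the 76 nuclear members with at least 5 CPM, the log2 fold change was set beside the median of all other genes on the same chromosome. Across members Pearson's r was 0.71 for uninduced clone 1 against WT, 0.68 for uninduced clone 2, 0.60 for stimulated clone 1, 0.73 for stimulated clone 2 and 0.85 for the clones against each other uninduced. These points share libraries and members of 1 chromosome share a value, so they are descriptions over members only. For the response to stimulation r was 0.00 in WT, -0.11 in clone 1 and -0.18 in clone 2.

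The 4 members on chromosome 15 (Atp5g2 of the c ring, Ndufb9 of complex I, and Cox6c and Ndufa6, which are named after their values were seen) show it. After stimulation they were higher than WT by 0.41 to 0.52 in clone 1 and by 0.27 to 0.41 in clone 2. The median of 403 other genes on that chromosome was 0.45 and 0.44. On chromosome 4 the 4 members, among them Uqcrh and Ndufs5, had a median of -0.51 in clone 1 and -0.54 in clone 2 beside -0.23 and -0.27 for 629 other genes. On chromosome 13 the 6 members had a median of -0.55 in clone 2 beside -0.27. On chromosome 10, which holds Atp5b, the 6 members had a median of -0.67 in clone 1 beside -0.43. These 6 include Ndufa4l2, whose few counts put it below the CPM limit set above. Without Ndufa4l2 the median in clone 1 was the value of Ndufs7, -0.57, which is nearer to that of the chromosome.

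With the chromosome median subtracted, 64 of the 76 members were below 0 in stimulated clone 2, against 59 before, and the median went from -0.23 to -0.25. In stimulated clone 1 the count went from 45 to 49 and the median stayed at -0.05. The standard deviation among members narrowed from 0.31 to 0.21 in stimulated clone 2 and from 0.27 to 0.14 in the clones against each other uninduced. For the difference in response the median went from -0.11 to -0.07 in clone 1, with 52 and then 49 members below 0. In clone 2 it went from -0.17 to -0.15, with 57 below 0 before and after.

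**Figure D5:**
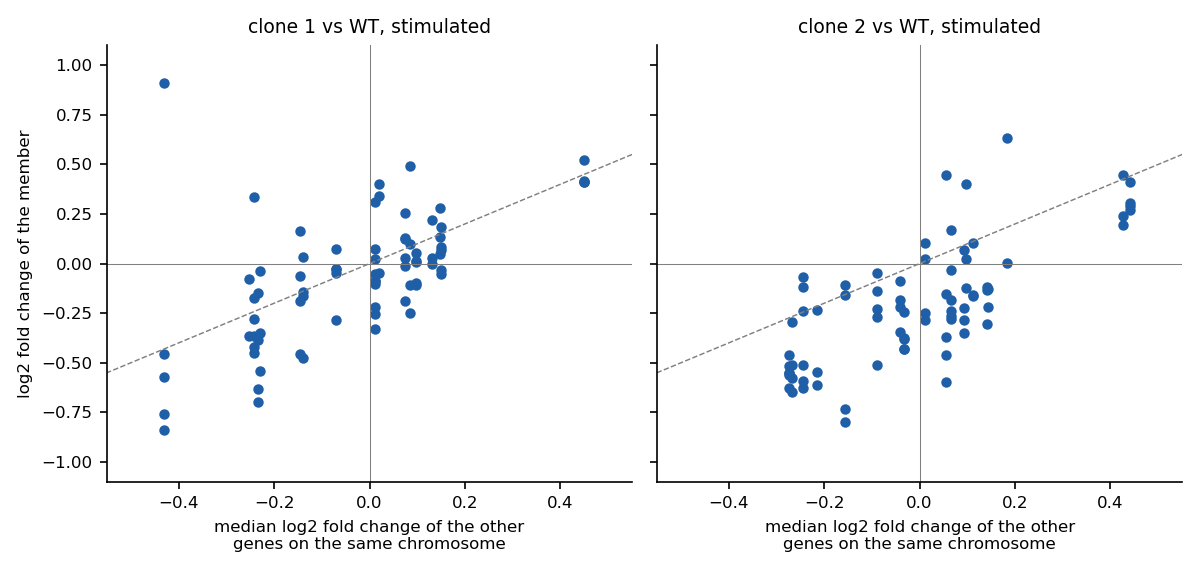
Log2 fold change of each nuclear member with at least 5 CPM against the median of the other genes on its chromosome, with the dashed line at equality. The panels show stimulated clone 1 and stimulated clone 2 against stimulated WT cells, with Pearson's r of 0.60 and 0.73.

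Genes that act beside the complexes were read from lists. Of 8 subunits and carriers that the symbol pattern misses, 5 rose and 1 fell in stimulated WT cells, where 60.7% of all genes were called. Cytochrome c, Cycs, which carries electrons from complex III to IV, rose from a mean of 37.1 to 115 CPM in WT (1.63 ± 0.07), by 0.88 in clone 1 and from 34.4 to 61.3 CPM in clone 2 (0.83). Its differences in response were -0.74 ± 0.10 and -0.79 ± 0.10 (edgeR adjusted p of 4.58e-07 and 1.45e-07). Cyc1, the cytochrome c1 of complex III, rose by 0.74 in WT, 0.31 in clone 1 and 0.33 in clone 2. Slc25a5, which exchanges ADP and ATP across the inner membrane, rose by 0.78, 0.32 and 0.28. Cycs, Cyc1 and Slc25a5 are named after their values were seen.

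Of 46 assembly factors tested, 22 rose and 6 fell in WT cells, and 10 were higher and 16 lower in stimulated clone 1, 9 and 16 in stimulated clone 2. Called in either direction, these numbers were near the shares over all genes of 60.7%, 58.9% and 56.0%. By direction, 28.8%, 28.4% and 27.7% of all genes were higher, and 31.9%, 30.5% and 28.3% lower. Of 13 citrate cycle genes 7 rose and 2 fell in WT cells, and in stimulated clone 2 there were 3 higher and 9 lower than WT, beside 60.7% and 56.0% of all genes. The 20 genes of mitochondrial membrane transport and structure gave 12 higher and 3 lower in WT cells, beside 28.8% and 31.9% of all genes. Their difference in response was lower for 8 and higher for 2 in clone 1, and lower for 11 and higher for 0 in clone 2, where 31.6% and 31.2% of all genes were called.

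Genes that express and maintain mitochondrial DNA gave 16 lower and 3 higher of 30 in stimulated clone 1 and 13 lower and 2 higher in stimulated clone 2. The numbers called in either direction were near the 58.9% and 56.0% of all genes. By direction, 30.5% and 28.3% of all genes were lower in these comparisons, and 28.4% and 27.7% higher. Tfam, which packages mitochondrial DNA and starts its transcription, had means of 60.7 CPM in stimulated WT, 28.8 in clone 1 and 50.5 in clone 2 (-1.07 ± 0.07 and -0.27 ± 0.07). Polrmt, the mitochondrial RNA polymerase, gave -0.59 and -0.25. Mterf2, a mitochondrial transcription factor, was a DEG in both (-1.14 and -1.15), at 3.91 CPM in WT and 1.78 and 1.76 in clones 1 and 2.

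Among 9 regulators tested, Ppargc1a, a coactivator known to drive mitochondrial gene expression, was 0.26 CPM in uninduced WT and 7.36 and 6.04 CPM in uninduced clones 1 and 2 (log2 fold change 4.74 ± 0.36 and 4.46 ± 0.36, edgeR adjusted p of 5.48e-12 and 1.92e-11). After stimulation it was listed at 0 in WT, 0.389 CPM in clone 1 and 0.0574 CPM in clone 2. Ppargc1b stayed at group means of 1.60 CPM or below. Pprc1, a relative of both that is induced by serum, rose by 1.30 ± 0.09 in WT, by 0.37 in clone 1 and by 0.52 in clone 2. Nrf1 rose in WT (0.49) and gave 0.12 in each clone, which did not pass. Gabpa was higher in stimulated clone 2 than in WT (0.39) and gave 0.09 in clone 1, and Esrra gave 0.37 and 0.13. Hif1a, which directs the response to low oxygen, was higher in stimulated clone 2 (1.04 ± 0.05). Of 8 thermogenic adipocyte genes 7 were not tested for low counts. Ucp1 and Cidea had group means of 0.14 CPM or below in every group.

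Some members carry a limit of counting. In 13 members more than 10% of exonic bases lie under another gene, among them Ndufb6 (39.0%, Smim27) and Ndufa13 (30.0%, Tssk6). The nuclear members Ndufs3, Uqcrb, Atp5h, Atp5l and Atp5o have a copy at 97% identity or more over at least 50% of the transcript. Ndufa12, an accessory subunit of complex I, ranged from 8.21 to 42.2 CPM and it passed in none of the comparisons by edgeR's quasi-likelihood test.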

How the data were processed

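RNA was measured in 18 libraries of mouse C3H10T1/2 cells of 6 groups. The authors sequenced poly(A) RNA as paired-end reads, aligned it with HISAT2 to mm10 and deposited a table of raw read counts per gene, which holds whole numbers that are not normalized. The counting program, its annotation and its strand setting were not given in the sources used here. Library totals ranged from 15576685 to 42005596 counts, so counting error is small for most members and large for those with few counts. No row without a gene entered the fits, and 0 columns of other samples were found.

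Genes were filtered with filterByExpr (minimum count 10), which left 14317. Groups were fitted together with edgeR 4.0.16 in R 4.3.3 (TMM, robust quasi-likelihood), and p-values were adjusted by Benjamini-Hochberg over all genes tested. DEGs had an adjusted p below 0.05 and more than a 2-fold change, the thresholds of the study, which used DESeq2. Here DESeq2 1.42.0 was an alternative, with other filters, normalizations, sample sets, a replicate block and each library left out. The fit was tested on simulated data. Sums and shares were compared by exact permutation. Replicates differed by more than sampling noise (chi-square per degree of freedom of 3.17 or more in every pair) and were kept apart. The uninduced WT libraries were the least alike, with Pearson's r of 0.986, 0.988 and 0.993 on log2 CPM, and every other replicate pair had a higher r.

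Members were matched to GENCODE M21, of which 54495 of 54532 table genes had a record, and copies of transcripts were found with blastn 2.17.0. Mitochondrial genes and their copies were aligned with Biopython 1.88. Members and lists were chosen with earlier results of these data known. Members named are the 13 mitochondrial genes, sets of paralogous subunits, the 4 Sdh genes, any DEG, and in each complex the lowest and highest log2 fold change among those that passed in a stimulated clone. From the lists, named regulators and genes that were DEGs in both clones were taken. Exceptions are marked.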

Additional observations from a re-analysis of the deposited data

Results flagged for a closer look

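The response to stimulation differed between lines for the following members, by edgeR's quasi-likelihood test of the difference itself (log2 fold change in the clone minus that in WT, Benjamini-Hochberg adjusted). In clone 1 the differences were -0.51 for Atp5g1, -0.37 for Ndufs5, -0.32 for Uqcrc1, -0.29 for Sdhb, -0.27 for Cox5a, -0.25 for Atp5g3 and -0.21 for Atp5d. In clone 2 they were -0.56 for Atp5g1, -0.48 for Uqcrc1, -0.42 for Uqcrq, -0.42 for Sdhb, -0.42 for Ndufa9, -0.34 for Cox5b, -0.34 for Atp5g3, -0.26 for Ndufs5, -0.25 for Cox5a, -0.20 for Atp5d and -0.19 for Cox6a1. Clone 2 also had 3 differences above 0, namely 0.96 for Atp5s, 0.69 for mt-Nd5 and 0.66 for mt-Nd6. Of the members named after their values were seen, Atp5b gave -0.26 and -0.44 and Ndufs1 -0.35 and -0.45 in clones 1 and 2, and Ndufb3 gave 0.57 in clone 1. In clone 1, 13 of 92 members were called in this test, beside 31.6% of all genes, and in clone 2, 22 members beside 31.2%. Members were thus called less often than genes as a whole. Both sets of differences used the same WT libraries. Sizes ranged from below 0.2 to just under 1 on the log2 scale, and none reached the 2-fold threshold. With 3 libraries per group, single outlying libraries were not tested for.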

How the results depend on the processing

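Without the fold threshold the members called numbered 38, 44, 41 and 62 for clones 1 and 2 against WT, uninduced and then stimulated, 42, 32 and 40 for the responses of WT, clone 1 and clone 2, 13 and 22 for the differences in response, and 37 and 45 between the clones. Among the small DEG counts, glmTreat gave 2, 1 and 2 (clone 2 uninduced, clones 1 and 2 stimulated), 1 for the WT response, 0 for the clone 2 response, and 1 and 0 between the clones. Fitting only the groups compared gave 1 and 2 for the stimulated clones, 1 for the WT response, and 1 and 0 between the clones. Leaving out mitochondrial genes gave 1 and 2 for the stimulated clones. A filter of 1 CPM in 3 libraries gave 2 for clone 2 uninduced, 1 for clone 1 stimulated, 1 for the difference in response of clone 1 and 1 between the stimulated clones, and no filter gave 1 and 1 in the second and last of these. DESeq2 gave 1 DEG for the difference in response of clone 1. With no filter the difference in response of clone 2 called 39 members, of which 38 were lower.

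With each library left out, DEG counts ranged from 0 to 1 for clone 1 uninduced, 1 to 2 and 2 to 4 for clones 1 and 2 stimulated, 0 to 1 for the clone 1 response, 0 to 2 and 0 to 1 for the differences in response, 1 to 4 between uninduced and 0 to 2 between stimulated clones. Members called by adjusted p ranged from 8 to 17 and from 13 to 30 for the differences in response. On the log2 scale the mitochondrial share for clone 1 against WT uninduced ranged from -0.206 to 0.0742, for clone 2 from -0.0722 to 0.138, for the clone 1 response from -0.232 to 0.0605 and for the clones uninduced from -0.260 to 0.0208. The mitochondrial to nuclear ratio ranged from -0.152 to 0.143 for clone 1 uninduced and from -0.0613 to 0.250 for the clone 1 response. The first of these shares was 0.019 without the most abundant mitochondrial gene (against -0.02), and the clone 1 response was 0.12 with TMM library sizes (against -0.12). The exact permutation test cannot give a p below 0.1 with 3 against 3 libraries, so it could not decide these values.

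Same-numbered libraries did not deviate together (0 of 45 pairs over r = 0.1), and 4 of 18 correlated best with their own number. With the replicate block the DEGs numbered 1 for clone 1 stimulated and 1 between the stimulated clones, and no other count moved by more than 1.5 times. Of the single values of named members 0 turned sign under the fits with DESeq2, its size factors, mitochondrial genes left out or the block, or without a library. Calls were lost for 4 of these values with DESeq2, 4 with its size factors, 0 without mitochondrial genes and 6 with the block. Over all libraries left out in turn, 324 calls were lost and 3006 kept. The cause of these changes was not tested. Subtracting the chromosome median was chosen after seeing the data, and it moved the nuclear median for clone 1 uninduced from 0.03 to -0.02. Depth limits members of few counts, such as Cox4i2, Cox6a2, Ndufa4l2 and mt-Atp8.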

Other observations

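The mitochondrial ribosomal RNAs, which are no members, were higher in the clones. mt-Rnr2, the large ribosomal RNA, had means of 232 ± 41 CPM in uninduced and 219 ± 25 CPM in stimulated WT libraries (SD, n = 3), 622 ± 81 and 955 ± 105 in clone 1, and 347 ± 23 and 522 ± 80 in clone 2. No clone library reached down to the WT range. After stimulation the log2 fold changes against WT were 2.12 ± 0.16 in clone 1 and 1.25 ± 0.15 in clone 2 (edgeR's quasi-likelihood test, adjusted p of 5.1e-08 and 1.09e-05). mt-Rnr1, the small ribosomal RNA, gave 1.26 ± 0.12 and 1.12 ± 0.12. In clone 1 the ribosomal RNAs were thus higher while 2 of 13 mitochondrial protein-coding members were, mt-Nd1 and mt-Atp8. The libraries were made from poly(A) RNA, so these levels measure what that selection kept.

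Genes outside the complexes differed in response as well, named after their values were seen. Phb, a scaffold of the inner membrane, rose by 0.74 in WT cells and gave -0.11 and -0.07 in clones 1 and 2, with differences in response of -0.84 ± 0.12 and -0.81 ± 0.13. Mdh2, the last enzyme of the citrate cycle, rose by 0.74, 0.42 and 0.33. Suclg1, a subunit of succinyl-CoA ligase, rose by 0.49 in WT and gave 0.12 and 0.04 in the clones. Ndufab1, the acyl carrier protein that also sits in complex I, rose by 0.79, 0.43 and 0.35. The differences from WT passed in each of these by edgeR's quasi-likelihood test.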
